A study of Mus musculus with 3 samples.

Results

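The genes of the TGF-beta and BMP pathway were examined for H3K27ac, the acetylation of histone H3 at lysine 27 that marks active promoters and enhancers, in cultured epithelium of the mouse pancreas. The set holds 42 protein-coding genes of the 21887 in the annotation: ligands, receptors, SMAD proteins, SMAD repressors and ubiquitin ligases, and the Id target genes. Its regions are the H3K27ac peaks that lie within 50 kb of the body of one of these genes on GRCm38. By that rule 241 of 37765 peaks belonged to the set in the untreated spheroids and 235 of 38793 in the post-caerulein spheroids. The 42 windows join into 41 stretches of 6.76 Mb in all, since those of Acvr1b and Acvrl1 overlap. A peak lay within 50 kb of 39 genes. Bmp5, Bmpr1b and Id4 had none in either condition. For the peaks at the 50 kb limit, distance was measured from the nearest gene of the set. The last untreated peak inside was a 2329 bp peak 49633 bp from Id2 and the first outside a 3365 bp peak 50673 bp from Id1. In the post-caerulein list these were a 2263 bp peak 49748 bp from Id2 as well and a 2710 bp peak 50357 bp from Smad7.

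Spheroids are three-dimensional cultures of epithelial cells. Those compared here were grown from wild-type C57BL/6J mice that were either untreated or had been given caerulein beforehand, a cholecystokinin analogue that causes pancreatitis. All were kept in the same medium with EGF at 20 ng/ml, hydrocortisone, cholera toxin and bovine pituitary extract. Each condition has 1 H3K27ac library, from cells fixed in 1% formaldehyde for 10 min. The dose of caerulein, the time between treatment and culture, and the age, sex and number of mice are not given in the sources used here. As there is 1 library per condition, differences are described without a test and without replicate error. The files list peaks without reads, so the depth of both libraries is unknown, and depth and condition cannot be told apart. In a bulk library, a mark carried by fewer cells and a weaker mark in each cell cannot be told apart either.

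TGF-beta, activin and BMP ligands are secreted dimers that join a type II and a type I serine/threonine kinase receptor. The TGF-beta and activin receptors phosphorylate SMAD2 and SMAD3, the BMP receptors SMAD1, SMAD5 and SMAD9, and both groups enter the nucleus with SMAD4. SMAD6, SMAD7, SKI, SKIL and the SMURF ligases restrain the signal. In the pancreas TGF-beta is known for growth arrest of epithelial cells and for the fibrosis that follows pancreatitis, and loss of SMAD4 is frequent in pancreatic cancer.

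Promoter sequences are shown for 5 genes whose H3K27ac the results below turn on. Each runs from 250 bases before to 50 bases after a RefSeq start site on GRCm38.p6, 5′ to 3′ on the strand of the gene. Such sequences were at hand for 30 of the 42 genes (36 start sites). Tgfbr2 (chr9:116175314-116175613, minus strand), Bmp6 (chr13:38345466-38345765, plus strand), Smad6 (chr9:64022010-64022309, minus strand) and Smurf2 (chr11:106920666-106920965, minus strand) lay under peaks over all 300 bases in both conditions. The differences in covered bases described below at Tgfbr2, Bmp6 and Smad6 lay outside these 300 bases, and Smurf2 held most matches. Capitals mark the searched letters on either strand: CAGAC, which forms part of the element that SMAD3 and SMAD4 bind, GTCTAGAC, its palindrome, and GGCGCC, a GC-rich element bound by SMADs.
Tgfbr2: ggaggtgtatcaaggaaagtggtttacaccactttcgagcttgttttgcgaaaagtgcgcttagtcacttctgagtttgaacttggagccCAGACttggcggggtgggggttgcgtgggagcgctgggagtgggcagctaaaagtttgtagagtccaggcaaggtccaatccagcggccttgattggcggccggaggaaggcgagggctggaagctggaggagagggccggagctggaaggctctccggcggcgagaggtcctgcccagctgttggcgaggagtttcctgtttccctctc
Bmp6: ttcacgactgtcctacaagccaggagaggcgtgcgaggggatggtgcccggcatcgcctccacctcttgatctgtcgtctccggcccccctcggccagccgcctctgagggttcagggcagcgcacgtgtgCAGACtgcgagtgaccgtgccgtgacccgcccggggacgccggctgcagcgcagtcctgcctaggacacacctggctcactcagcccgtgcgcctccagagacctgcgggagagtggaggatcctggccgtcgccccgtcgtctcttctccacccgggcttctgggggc
Smad6: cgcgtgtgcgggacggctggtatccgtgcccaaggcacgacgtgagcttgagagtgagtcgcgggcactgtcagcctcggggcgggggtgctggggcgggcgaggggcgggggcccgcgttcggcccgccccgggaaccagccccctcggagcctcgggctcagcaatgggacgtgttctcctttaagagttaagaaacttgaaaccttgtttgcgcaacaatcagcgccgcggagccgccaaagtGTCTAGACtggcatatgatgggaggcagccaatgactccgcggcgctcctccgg
Smurf2: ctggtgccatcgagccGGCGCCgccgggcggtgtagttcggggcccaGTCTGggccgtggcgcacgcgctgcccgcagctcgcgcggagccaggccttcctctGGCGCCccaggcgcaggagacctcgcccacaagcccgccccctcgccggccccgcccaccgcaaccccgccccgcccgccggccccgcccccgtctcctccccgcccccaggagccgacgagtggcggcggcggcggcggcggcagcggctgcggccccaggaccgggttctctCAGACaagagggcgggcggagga
The Bmp4 promoter (chr14:46390620-46390919, minus strand) held no such match and is shown for another reason. Its capitals mark the 93 bases that lay under a peak in untreated spheroids alone, and the other bases lay under no peak in either list.
Bmp4: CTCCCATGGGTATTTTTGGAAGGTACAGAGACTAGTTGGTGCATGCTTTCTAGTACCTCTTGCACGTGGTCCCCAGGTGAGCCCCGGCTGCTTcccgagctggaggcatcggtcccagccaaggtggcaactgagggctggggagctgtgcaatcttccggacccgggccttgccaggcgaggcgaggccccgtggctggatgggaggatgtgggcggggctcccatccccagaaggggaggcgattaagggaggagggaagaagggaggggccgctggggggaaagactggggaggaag
CAGAC or its complement occurred in 17 of the 36 promoters (47.2%), against 49.6% of 32851 promoters of the same length. GTCTAGAC occurred in 1 of the 36 (2.78%), that of Smad6, against 0.213%. GGCGCC occurred in 11 (30.6%) against 11.9%, or, with start sites of a gene counted once, in 10 of 30 genes (33.3%) against 13.4%, in promoters whose median GC content was 65.2% against 52.7% over all promoters. TGANTCA, the letters of an AP-1 site, was in none of the 36 and in 7.81% of all. The motifs shared no base in the sequences shown. A match of letters describes the sequence and shows no binding.

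Most H3K27ac at these genes was found in both conditions. A peak was called list-only when no base of it lay under a peak of the other condition. Untreated-only peaks numbered 25 of 241 (10.4%, exact 95% interval 6.83 to 14.9), against 14.3% of all untreated peaks. Post-caerulein-only peaks numbered 24 of 235 (10.2%, 6.65 to 14.8), against 17.5% of all post-caerulein peaks. The intervals cover counting error over peaks only. Peaks covered 1047 kb of the 41 stretches in the untreated list and 1060.4 kb in the post-caerulein list, a log2 ratio of 0.02, where the windows of all coding genes gave 0.05. The set as a whole therefore had nearly the same covered length in both libraries.

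The list-only peaks were narrow and low in score. Their median width was 1882 bp untreated and 1480 bp post-caerulein, while shared peaks had median widths of 3024.5 and 3197 bp. The score is the deposited value of each peak and ranks peaks only within its own list. In each list 15 of the list-only peaks (60.0% and 62.5%) fell in the lowest 25% of scores, against 68.5% and 72.7% of all list-only peaks. Of the 133 untreated peaks near these genes with a score at or above the list's median none was untreated-only, against 1.61% of all such peaks. Among the 146 post-caerulein peaks at or above the median 1 was post-caerulein-only, against 0.943%. That peak lies in Bmp6.

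List-only peaks lay near 23 of the genes, and 16 genes had peaks of which none was list-only. Post-caerulein-only peaks outnumbered untreated-only ones near 10 genes, and near 30.2% of coding genes with a peak. The opposite held for 9 genes, against 27.2%. A difference of 2 or more peaks in favour of post-caerulein spheroids was seen at Bmp3, Bmp6, Smad2 and Smurf2, 4 of 39 genes against 11.1% of coding genes. A difference of 2 or more in favour of untreated spheroids was seen at Tgfbr1, Tgfbr2, Bmp4, Bmp8a and Acvr1b, 5 of 39 against 9.84%. All these counts were near the background.

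**Figure D1:**
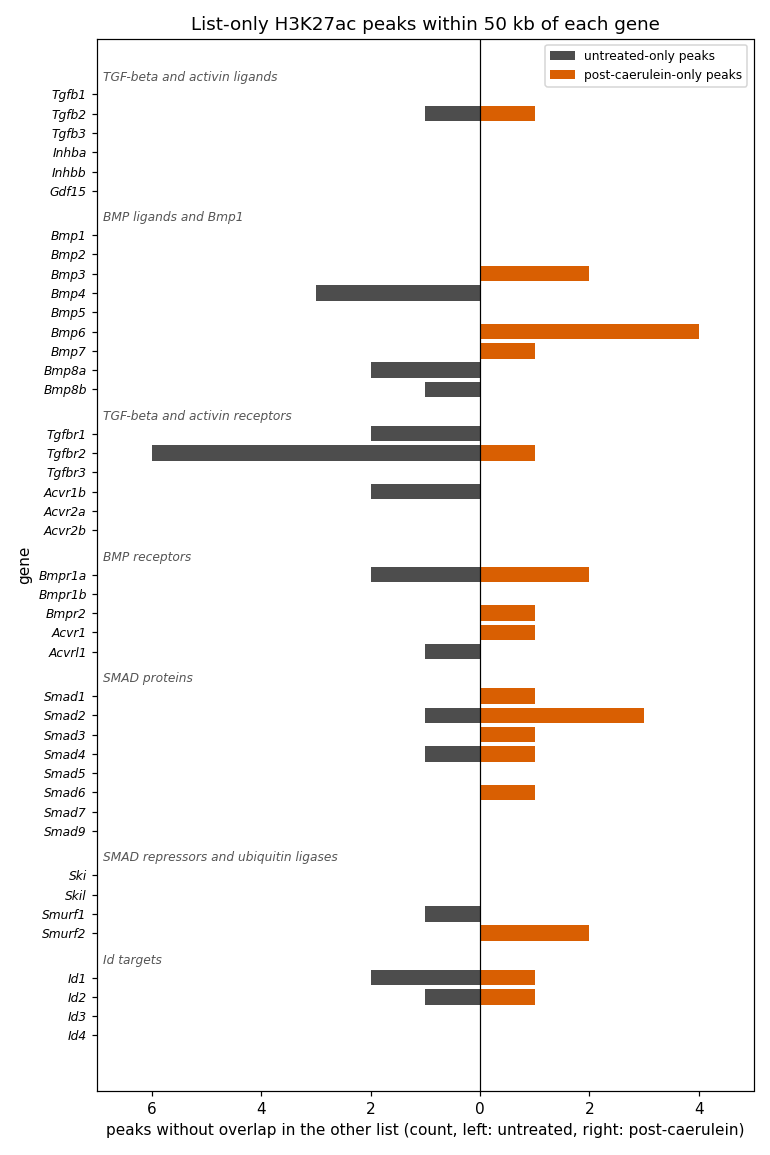
Number of peaks within 50 kb of each gene (vertical axis, grouped by role) without overlap in the other list, with untreated-only peaks drawn to the left and post-caerulein-only peaks to the right; each condition is 1 library. Tgfbr2 has the longest untreated bar with 6 peaks and Bmp6 the longest post-caerulein bar with 4.

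Covered length is the length under peaks within 50 kb of the gene body. A gene was said to differ when the covered lengths, with 1 kb added to each, differed at least 1.5-fold and at least 2 kb were covered in one list. By this rule Bmp3, Bmp6, Inhba and Smad2 had more covered length post-caerulein, 4 of 39 genes against 6.37% of coding genes. Bmp4 and Bmp8a had more in untreated spheroids, 2 of 39 against 6.14%. For 27 genes the lengths agreed within 1.2-fold. The median log2 ratio was 0.04 over the 39 genes and 0.01 over all coding genes with at least 2 kb covered.

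**Figure D2:**
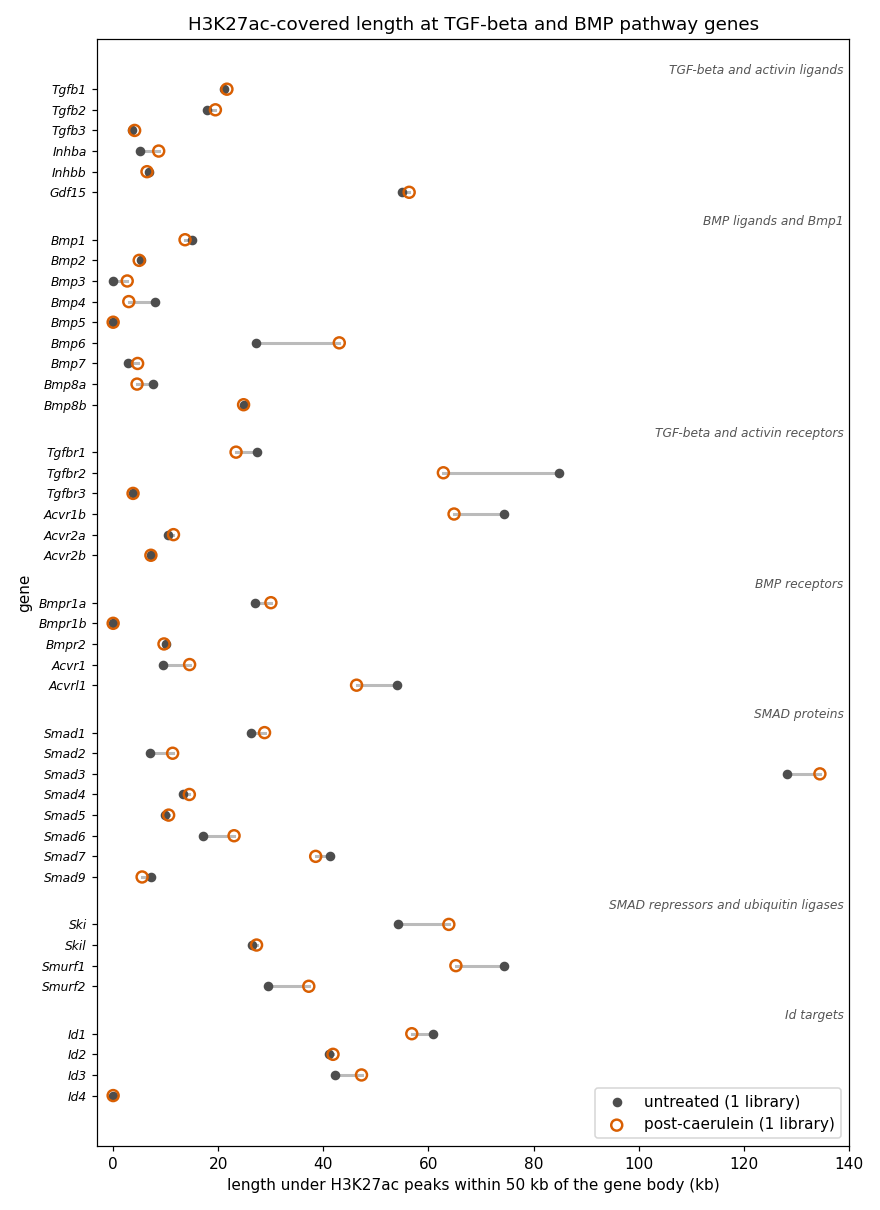
Length under H3K27ac peaks within 50 kb of each gene body in kb, with filled circles for the untreated library and open circles for the post-caerulein library; genes are grouped by role. Most circle pairs touch, Smad3 stands far to the right in both libraries, and the widest separations are those of Tgfbr2 and Bmp6.

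**Figure D3:**
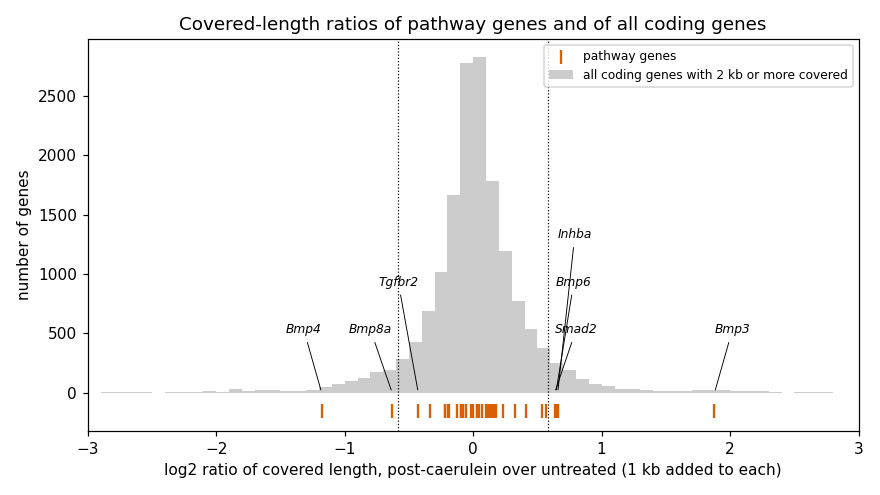
Grey bars count coding genes with at least 2 kb covered by the log2 ratio of covered length, post-caerulein over untreated, with 1 kb added to each; orange ticks are the 39 pathway genes and dotted lines mark a 1.5-fold difference. Bmp4 and Bmp8a lie left of the lines, Smad2, Bmp6, Inhba and Bmp3 right of them, and the other ticks lie between; Bmp3 had no untreated peak, so its ratio depends on the added 1 kb.

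Among the TGF-beta and activin ligands, the 3 TGF-beta genes had similar covered lengths in both conditions. Tgfb1 (chr7:25687002-25705077), the most widely expressed TGF-beta isoform, had 7 peaks in each list, none list-only, and 21.0 kb covered untreated against 21.7 kb post-caerulein. In each list 2 of these peaks lay in the Tgfb1 gene body and the others lay nearer to other genes. Tgfb2 had 17.95 and 19.46 kb, with 1 list-only peak on each side. Of the length covered near Tgfb2 in either list, 70.0% was covered in both, against a median of 81.3% over the set. Tgfb3 had 3.51 and 4.09 kb. A peak lay over a start site or gene end of all 3 in both lists.

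Inhba (chr13:16004256-16031609, plus strand), which encodes the beta A subunit of activin, stood out among the ligands by a longer peak inside the gene. It had 5.13 kb covered in untreated and 8.67 kb in post-caerulein spheroids, a ratio of 1.58 with 1 kb added to each. Both lists had 2 peaks there. The peak over the start site had nearly the same width, 2337 bp untreated and 2584 bp post-caerulein. The other, downstream of the start, measured 2790 bp untreated and 6082 bp post-caerulein, 2.18 times as long. With 5 kb added to each length in place of 1 kb, the log2 ratio of Inhba was 0.43, under the threshold. Inhbb, the beta B subunit, had 6.86 and 6.44 kb. Gdf15, a stress-induced ligand of the family, had 55.04 and 56.33 kb, with the whole gene body under a peak in both lists; most of that length lay upstream, nearer to Pgpep1 and Lsm4.

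The BMP ligands held 4 of the 6 genes past the covered-length rule, and in both directions. Of the 8 BMP ligand and Bmp1 genes with at least 2 kb covered, 2 had more post-caerulein, against 6.37% of coding genes. Another 2 had more untreated, against 6.14%. Covered length was small in this group, with medians of 7.58 kb untreated and 4.66 kb post-caerulein over its 9 genes. Over all 42 genes the medians were 16.08 and 17.01 kb. Bmp6 (chr13:38345716-38500314, plus strand), a BMP best known for the control of hepcidin in liver, had 8 untreated and 12 post-caerulein peaks, and 27.2 against 43.0 kb covered, a ratio of 1.56 with 1 kb added. None of the untreated peaks was list-only and 4 of the post-caerulein peaks were. Those 4 were 874 bp wide 38.1 kb upstream of the start site, and 4402, 5779 and 1499 bp wide at 17.5, 73.1 and 104.3 kb downstream, inside the gene. The 5779 bp peak (chr13:38418819-38424597) had a score of 874.76, above 59.6% of its list, and is the list-only peak with the highest score near any of the 42 genes. The untreated list had no peak between those that begin 41.3 and 80.2 kb downstream of the start. The start-site peak was nearly equally wide in both lists, 8275 and 8222 bp, but its place in the scores differed. Its score was 637.30 untreated, under that list's median of 681.38, and 2599.76 post-caerulein, above that list's median of 526.37. With 5 kb added to each length the log2 ratio at Bmp6 was 0.58, just under the threshold, and inside the gene body alone it was 0.80.

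Bmp4 (chr14:46383525-46390669, minus strand), a BMP with roles in foregut and pancreas development, had the opposite pattern. It had 4 untreated peaks and 1 post-caerulein peak, and 8.004 against 2.977 kb covered, 2.26 times as much in untreated spheroids with 1 kb added. The shared peak lies inside the gene and measured 4331 bp untreated, with a score of 3100, and 2977 bp post-caerulein. The 3 untreated-only peaks were 1059 bp wide 32.6 kb downstream of the start, 1420 bp wide 158 bp upstream of it and 1194 bp wide 7.1 kb upstream. Their scores ran from 68.3 to 108.65, above at most 16.5% of the untreated list. The 1420 bp peak is the one that covers the capitals in the Bmp4 promoter above. No peak of either list lay over the start site itself, while within 1 kb of it a peak lay in the untreated list alone. Inside the gene body alone the log2 ratio was -0.42, not past the rule.

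Bmp3 and Bmp7 were the 2 genes with a peak over a gene end in post-caerulein spheroids alone, where 1.78% of coding genes have this pattern. Their strand and start site were not in the promoter table, so both gene ends were used. Bmp3, an antagonist-like member of the family, was listed with no peak untreated and with 2.68 kb under 2 peaks post-caerulein. They measured 1616 bp, over the gene end at 98854415 on chromosome 5, and 1060 bp, and had scores of 79.97 and 55.03, above 11.5% and 2.4% of their list. Among equal numbers of the highest-scored peaks 1 of them remained and Bmp3 no longer passed the covered-length rule, and with a score limit at the list's median neither remained. Bmp7, a BMP expressed in many epithelia, had 2.91 kb untreated and 4.66 kb post-caerulein, with a post-caerulein-only peak of 1461 bp over its end at 172940321 on chromosome 2. No gene of the set had a peak over a start site or gene end in untreated spheroids alone, against 1.05% of coding genes. Both lists had a peak there at 35 genes, against 51.1%, and neither list at 5, against 46.1%: Bmp4, Bmp5, Bmpr1b, Smad9 and Id4.

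Bmp8a and Bmp8b are neighbouring near-copies of each other, and the treatment of reads that match both genes is not stated in these sources. Bmp8a had 7.58 kb untreated and 4.55 kb post-caerulein, 1.55 times as much untreated with 1 kb added. The difference came from 2 untreated-only peaks of 528 and 2226 bp that lie 29.6 and 45.5 kb from the gene, nearer to Pabpc4 and Macf1. Within 100 kb of the gene the log2 ratio was 0.01, and inside the gene body it was -0.01. Bmp8b had 24.9 and 24.8 kb within 50 kb. Its start-site peak was 2290 bp untreated and 4398 bp post-caerulein, 1.92 times as long. Bmp1, which encodes a protease and no ligand, had 15.1 and 13.7 kb, and Bmp2 had 5.30 and 4.96 kb, both without list-only peaks. The peak over a gene end of Bmp2 was 1811 bp wide untreated and 1296 bp post-caerulein. Its score was 714.69 untreated, above that list's median of 681.38, and 64.61 post-caerulein, under that list's median of 526.37.

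The gene of the type II TGF-beta receptor, Tgfbr2 (chr9:116087695-116175363, minus strand), had the most list-only peaks of the set. It had 17 untreated and 13 post-caerulein peaks within 50 kb, and 84.8 against 62.8 kb covered, a log2 ratio of -0.43, which is not past the 1.5-fold rule. The gene body and its flanks differed. Inside the body 48.7 kb (55.6% of its length) lay under untreated peaks and 21.8 kb (24.9%) under post-caerulein peaks, 2.18 times as much untreated with 1 kb added. Outside the body 36.1 kb were covered untreated and 41.0 kb post-caerulein. All 6 untreated-only peaks lay inside the body, 17.0, 31.1, 45.3, 58.2, 61.9 and 65.7 kb downstream of the start site. The last 4 of these, from 116107545 to 116130014, lie in a stretch of 279.85 kb without any post-caerulein peak.

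The shared peaks of Tgfbr2 followed the same division. Inside the gene 4 of them were at least 1.5-fold longer untreated: 9346 against 2166 bp, 3506 against 1581 bp, 3527 against 2233 bp and 3325 against 1482 bp. Upstream of the gene 2 were longer post-caerulein: 2515 against 4498 bp and 1823 against 2915 bp. A post-caerulein-only peak of 1422 bp lay between them and the gene, 29.5 kb upstream. The peak over the start site, where the promoter printed above lies, measured 9379 bp untreated and 7852 bp post-caerulein, and a further post-caerulein peak of 1348 bp began 2.1 kb upstream of the start. The 6 untreated-only peaks had scores from 60.3 to 350.66, above 4.0% to 38.6% of their list. With only peaks at or above the list's own median score, the log2 ratio within 50 kb was 0.09, so the difference rests on the peaks of lower score.

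**Figure D4:**
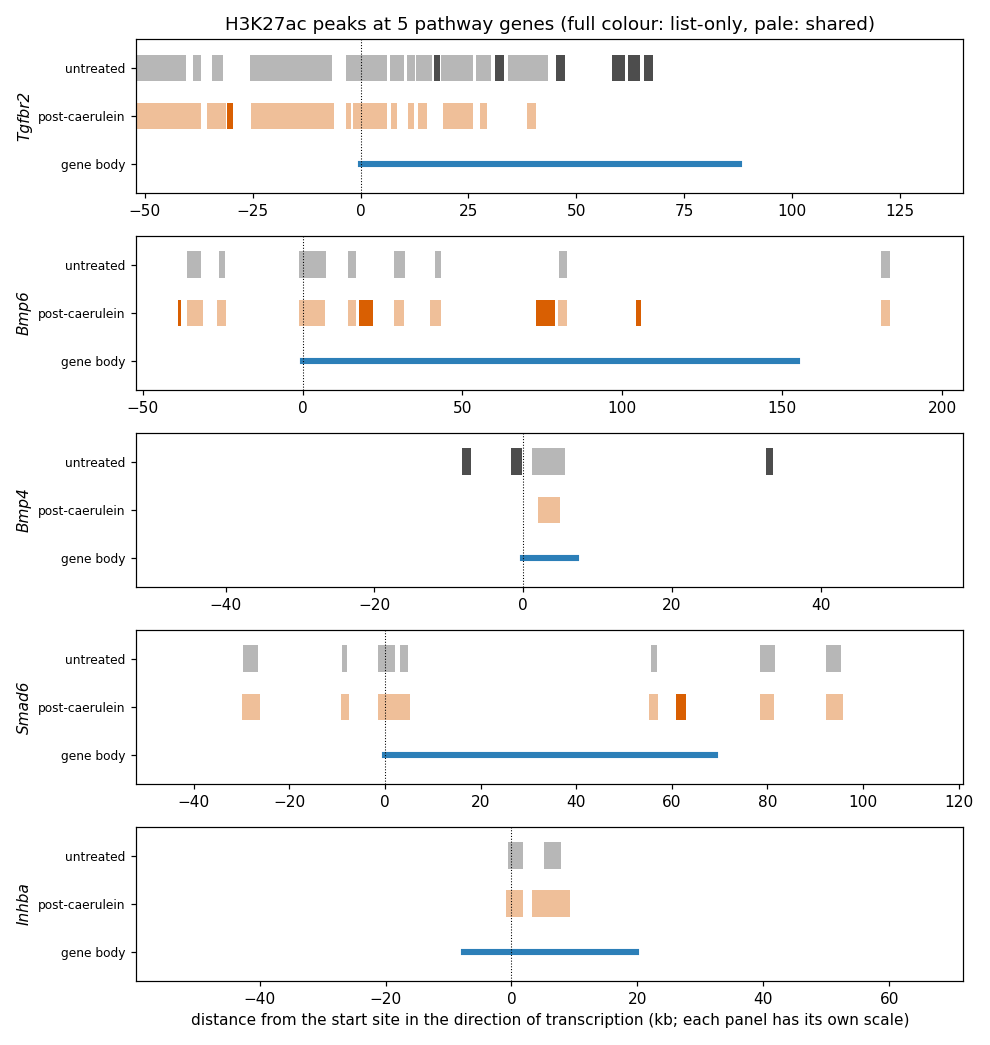
Peaks of both lists around 5 genes against the distance from the start site in kb, in the direction of transcription, with the gene body as a blue bar; full colour marks list-only peaks and pale colour shared peaks. At Tgfbr2 the 6 dark untreated peaks lie inside the gene from 17.0 to 65.7 kb, at Bmp6 4 orange peaks are seen in the post-caerulein list alone, and at Inhba 1 of the 2 shared peaks is longer post-caerulein.

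The other TGF-beta and activin receptors differed less. Tgfbr1, the type I partner of Tgfbr2, had 27.4 kb untreated and 23.4 kb post-caerulein. It had 2 untreated-only peaks of 1071 and 2318 bp, 30.0 and 5.5 kb upstream of the gene, the first of which lies nearer to Col15a1. Of all its peaks, 3 of 7 untreated and 1 of 4 post-caerulein had Tgfbr1 as the nearest coding gene. Its start-site peak was 3571 bp untreated and 4872 bp post-caerulein. The latter also overlapped a separate untreated peak of 2732 bp, so the joined domain held 6303 bp untreated against 4872 bp. Within 10 kb the log2 ratio at Tgfbr1 was -0.71, past the 1.5-fold rule in favour of untreated spheroids, and within 100 kb it was 0.003. Acvr1b, an activin type I receptor, was among the most covered genes, with 74.3 and 64.9 kb, a start-site peak of 13523 and 13407 bp, and 2 untreated-only peaks. Both of these lie nearer to other genes, Ankrd33 and Grasp, and the first is 49971 bp from Acvr1b and 4421 bp from Acvrl1. Tgfbr3, a co-receptor, had 3.80 and 3.79 kb. Acvr2a had 10.4 and 11.5 kb and Acvr2b 7.29 and 7.18 kb, both without list-only peaks. Of the 6 receptor genes of this branch, untreated-only peaks were the more numerous at 3, against 27.2% of coding genes, and post-caerulein-only peaks at none, against 30.2%. With peaks assigned to the nearest coding gene Acvr1b had no list-only difference, and Tgfbr1 kept 1 of its 2 untreated-only peaks.

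Of the BMP receptors, Acvr1 (chr2:58446438-58566828, minus strand), a type I receptor, had 9.52 kb untreated and 14.6 kb post-caerulein, a ratio of 1.48 and so just under the rule. Far inside the gene 2 untreated peaks of 3397 and 1201 bp faced a continuous post-caerulein peak of 6854 bp. A post-caerulein-only peak of 1760 bp lay 3.4 kb downstream of the start. Bmpr1a, another type I receptor, had 27.02 and 30.02 kb, with 2 list-only peaks on each side. The post-caerulein-only peaks, 1271 and 1434 bp wide, lay inside the gene, and the untreated-only peaks lay outside it. Bmpr2, the type II receptor, had 10.1 and 9.68 kb. Acvrl1 had 54.1 and 46.3 kb, a length that it shares in part with Acvr1b. Bmpr1b had no peak within 50 kb in either list.

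Smad3 (chr9:63646766-63757994, minus strand), the TGF-beta-activated SMAD, carried the greatest covered length of the set and one of the greatest of any gene. Its 128 kb untreated ranked 18 and its 134 kb post-caerulein ranked 13 among 21887 coding genes. Peaks lay over 94.1% of the gene body untreated and 95.1% post-caerulein. The widest peak was 50054 bp untreated and 41903 bp post-caerulein, and the peak over the start site 24481 and 32135 bp. The borders between these adjoining peaks differed between the lists while the covered stretch was nearly the same. A post-caerulein-only peak of 1625 bp lay 21.6 kb upstream.

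Smad2, which acts beside Smad3, had a much smaller domain, with 6.94 kb untreated and 11.3 kb post-caerulein, a ratio of 1.55 with 1 kb added. It had 1 untreated-only peak of 1851 bp and 3 post-caerulein-only peaks of 2107, 2648 and 1018 bp, all inside the gene. The untreated-only peak and the first of the post-caerulein-only peaks lay side by side without sharing a base. The peak over the gene end measured 3186 and 3583 bp. Among equal numbers of the highest-scored peaks the log2 ratio at Smad2 was 0.51, and within 100 kb it was 0.56, both under the rule. Smad4, the common partner, had 13.3 and 14.5 kb, with 1 list-only peak on each side. Of the BMP-activated SMADs, Smad1 had 26.3 and 28.8 kb, Smad5 9.80 and 10.6 kb, and Smad9 7.23 and 5.51 kb. The 2 peaks within 50 kb of Smad9 lay outside the gene and nearer to other genes in both lists.

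Neither inhibitory SMAD passed the rule. Smad6 (chr9:63953076-64022085, minus strand) had 17.1 kb untreated and 23.0 kb post-caerulein, a log2 ratio of 0.41. Untreated spheroids had a start-site peak of 3487 bp and a separate peak of 1689 bp beside it, and post-caerulein spheroids had a continuous peak of 6848 bp over both. A post-caerulein-only peak of 2041 bp lay 60.9 kb downstream. Inside the Smad6 gene body alone 5.03 kb were covered untreated and 9.30 kb post-caerulein, which differ at least 1.5-fold. Smad7 had 41.3 and 38.5 kb, most of it in a peak of 29560 bp untreated and 27898 bp post-caerulein that covered 98.0% and 92.5% of the gene body.

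Among the repressors and ligases, Ski had 54.3 kb untreated and 63.9 kb post-caerulein with no list-only peak. One of its shared peaks inside the gene was 1886 bp untreated and 4504 bp post-caerulein, 2.39 times as long. Skil had 26.4 and 27.3 kb. Smurf1, a ubiquitin ligase for SMADs and receptors, had 74.3 and 65.2 kb, with a start-site peak of 27029 and 27334 bp and 1 untreated-only peak. Its relative Smurf2 had 29.5 kb untreated and 37.2 kb post-caerulein, with 2 post-caerulein-only peaks of 1982 and 1728 bp, 5.9 and 46.3 kb upstream of the start. The second of these lies nearer to Kpna2. Of the 11 peaks near Smurf2 in each list, 2 untreated and 3 post-caerulein had it as the nearest coding gene. Its gene body held 3.48 kb of the covered length untreated and 4.48 kb post-caerulein. Within 100 kb of Smurf2 the list-only peaks of both conditions were equal in number.

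The Id genes, early targets of BMP signalling that inhibit basic helix-loop-helix factors, were wide domains in both conditions except for Id4. Id1 had 60.8 kb untreated and 56.8 kb post-caerulein, and the peak over the gene was 12094 and 10880 bp wide. Much of the rest of that window belongs to peaks nearer to H13 and Bcl2l1. Id2 had 41.0 and 41.8 kb, and Id3 42.2 and 47.3 kb. The gene bodies of Id1, Id2 and Id3 lay under a peak over their whole length in both lists.

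Shared regions were compared by length after joining overlapping peaks of the lists into domains. Near these genes there were 195 such domains, of which 14 were at least 1.5-fold longer post-caerulein, where 8.49% of all domains are, and 10 were at least 1.5-fold longer untreated, where 5.52% are. The median ratio of post-caerulein to untreated length was 1.02 near these genes and 1.02 over all domains. Wide peaks of 10 kb or more made up 21 of the 241 untreated peaks (8.71%) and 18 of the 235 post-caerulein peaks (7.66%), against 4.53% and 4.83% of all peaks. Of the untreated-only peaks 7 of 25 lay in a gene body of the set, 6 of them in Tgfbr2 and 1 in Smad2. Of the post-caerulein-only peaks 14 of 24 did, and these were spread over Bmp3, Bmp6, Bmp7, Bmpr1a, Bmpr2, Acvr1, Smad2 and Smad6. Among shared peaks 40.7% and 40.3% lay in a gene body. Counted as pairs of a peak and a gene within 50 kb, also chosen after the data had been seen, the list-only peaks lay in that gene's body in 26.9% of untreated and 58.3% of post-caerulein pairs of the set, and in 30.9% and 34.7% of pairs over all coding genes. When only the length inside the gene body was counted, a comparison chosen after the data had been seen, 7 of 29 genes had at least 1.5-fold more post-caerulein, against 10.4% of coding genes: Bmp3, Bmp6, Bmp8b, Acvr1, Inhba, Smad2 and Smad6. Tgfbr2 alone had at least 1.5-fold more untreated, 1 of 29 against 9.30%.

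Other genes of the pathway were taken from 5 lists, 90 genes in all. Peaks of these lists were counted gene by gene, so a peak near more than 1 gene of a list counts for each. Of the 75 with a peak, post-caerulein-only peaks were the more numerous near 26, against 30.2% of coding genes. Untreated-only peaks were the more numerous near 23, against 27.2%. Of the 5 lists, that of latency proteins and extracellular antagonists, which store ligands in the matrix, release them or block them, had the most uneven counts. Near its 23 genes 26 of 106 post-caerulein peaks were of that list alone, against 11619 of 89998 near all coding genes, counted the same way. Of its 90 untreated peaks 8 were of the untreated list alone, against 10519 of 89363. No value at a score limit or another setting is given here for this list. A surplus of 2 or more in favour of post-caerulein spheroids was seen at 6 of the 19 genes with a peak, against 11.1% of coding genes, and the reverse at none, against 9.84%. Itgb6, a subunit of the integrin that releases latent TGF-beta on epithelia, had 8 peaks seen post-caerulein alone and 1 seen untreated alone, with 54.03 kb covered untreated and 85.8 kb post-caerulein. Ltbp1, which binds latent TGF-beta in the matrix, had 6 peaks seen post-caerulein alone and none seen untreated alone, with 25.7 and 45.3 kb. Itgb8, the subunit of another such integrin, was listed with no peak untreated and with 3.84 kb post-caerulein, including a peak over its start site or gene end. Cer1, an extracellular antagonist, had 2 post-caerulein-only peaks and 7.16 against 12.7 kb, with no peak over its start site or gene end in either list.

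The other lists were more even. Median log2 ratios were 0.02 for the other ligands, -0.09 for the other receptors, 0.07 for the latency proteins and antagonists, 0.06 for the intracellular regulators and 0.03 for the common targets, against 0.01 over all coding genes. The 19 other ligands had 7 list-only peaks on each side, counted gene by gene, and the windows of Lefty1 and Lefty2 overlap. Gdf3 had 3 untreated-only and Lefty1 3 post-caerulein-only peaks, and Inha had 1 untreated-only peak. Gdf7 had 1 post-caerulein-only peak and 4.18 against 15.1 kb. None of these 4 genes had a peak over its own start site or gene end. The 11 other receptors and co-receptors had 5 untreated-only and 2 post-caerulein-only peaks. Rgmb, a BMP co-receptor, had 2 of the untreated-only peaks, with 17.8 and 12.7 kb, and Amhr2 had 1. Lrrc32 and Tdgf1 had no list-only peak.

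The 20 intracellular regulators had 14 untreated-only and 15 post-caerulein-only peaks. Ldlrad4, which keeps SMAD2 and SMAD3 from the receptor, had 4 post-caerulein-only peaks and 21.3 against 31.1 kb, while Strap and Xiap had 2 untreated-only peaks each and Lemd3 2 untreated-only and 1 post-caerulein-only. The 17 common targets had 16 untreated-only and 8 post-caerulein-only peaks. Of the 14 with a peak, post-caerulein-only peaks were the more numerous at 7, against 30.2% of coding genes. Untreated-only peaks were the more numerous at 5, against 27.2%. Of the untreated-only peaks 8 lay at Runx2, with 73.9 kb untreated and 47.5 kb post-caerulein, and 3 each at Cdkn2b and Atoh8. Runx2 had no peak over its start site or gene end in either list. Cdkn2b, a cell-cycle inhibitor induced by TGF-beta, had 25.6 and 19.3 kb. Atoh8 had 32.3 and 26.7 kb, with 1 post-caerulein-only peak as well, and a peak over its start site or gene end in untreated spheroids alone. Msx2 had 1 untreated-only peak of 1.45 kb and no post-caerulein peak. Fn1, which encodes fibronectin and was named after its values were seen, had 8.14 kb untreated and 14.5 kb post-caerulein, past the 1.5-fold rule.

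**Figure D5:**
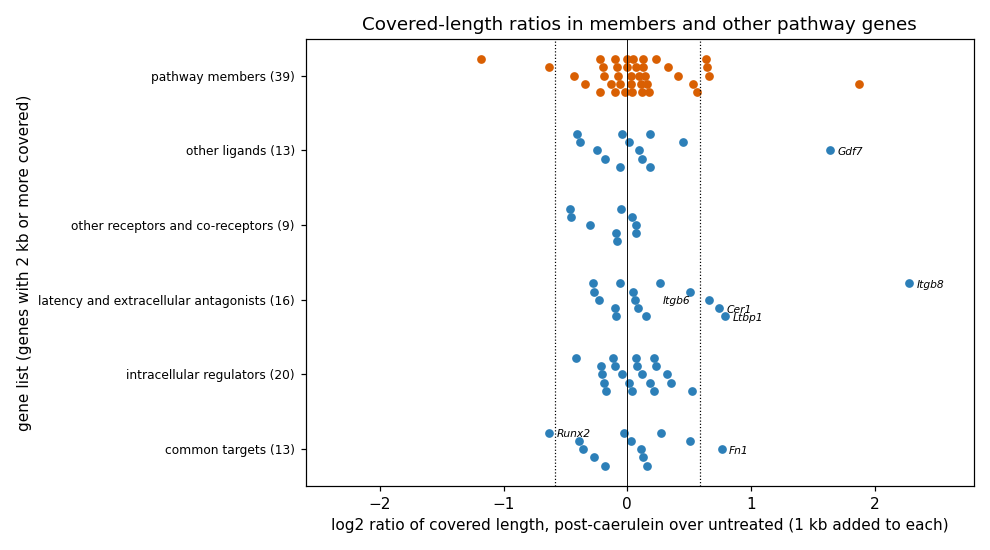
Log2 ratio of covered length, post-caerulein over untreated with 1 kb added to each, for every gene with at least 2 kb covered; orange points are the pathway genes of the set, blue points the other pathway genes by list, and dotted lines mark a 1.5-fold difference. Itgb6, Cer1, Ltbp1 and Itgb8 lie right of the line in the list of latency proteins and antagonists, and Runx2 is the blue point left of it.

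The labelled cell type was checked against marker genes. All 12 ductal and epithelial markers, Krt19, Sox9, Epcam and Cdh1 among them, had a peak over their start site or gene end in both lists. The same held for 1 of 10 acinar markers (Bhlha15), 0 of 8 endocrine, 0 of 10 mesenchymal, 2 of 8 immune (Spi1 and Cd68) and 1 of 8 endothelial markers (Vwf). The summed covered length around the mesenchymal markers was 53.3 kb untreated and 66.8 kb post-caerulein, with no peak near Col1a2, Col3a1, Pdgfra and Lum. Around the acinar markers it was 186.6 and 196.0 kb, with no peak near Ptf1a, Cpb1, Pnlip and Amy2b. For the immune markers the sums were 98.5 and 90.7 kb, with none near Adgre1, and for the endothelial markers 90.4 and 95.7 kb, with none near Emcn. For the endocrine markers they were 11.4 and 13.5 kb, with none near Ins1, Ins2, Gcg, Sst and Neurod1. Around the ductal markers 670.1 kb were covered untreated and 633.3 kb post-caerulein. These sums add the windows gene by gene, so length in overlapping windows, such as those of Krt8 and Krt18, counts more than once. They hold genes that differ in both directions. Of the 44 markers of other cell types, 25 had at least 2 kb covered. By the 1.5-fold rule 5 of these had more covered length post-caerulein (Mafa, Pdgfrb, Thy1, Csf1r and Erg), against 6.37% of coding genes. Another 4 had more in untreated spheroids (Cpa1, Chga, Spi1 and Tek), against 6.14%. The windows of Pdgfrb and Csf1r overlap, so part of the same stretch counts for both. Pdgfrb, a mesenchymal marker, had 2.74 and 8.98 kb, Erg, an endothelial marker, 1.502 and 16.95 kb, and Spi1, an immune marker, 15.3 and 6.25 kb. Among the ductal markers Cftr had 54.5 kb untreated and 23.6 kb post-caerulein, with 8 untreated-only peaks, and Sox9 5.12 and 11.2 kb. The part of other cell types in the differences above was not tested.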

How the data were processed

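The labels describe 3 libraries: an input of untreated spheroids, without a peak list used here, and 1 H3K27ac library each of untreated and post-caerulein spheroids. No input of post-caerulein spheroids is among them. Per the submitters' processing notes, reads were handled with Trimmomatic 0.38, Bowtie2 2.2.6, SAMtools and MACS 1.4 on GRCm38 (mm10). Each deposited list gives peaks of 1 library with a score, which no header defines; the authors' score runs from 50.0 to 3233.06, and 8440 untreated and 5828 post-caerulein peaks lie at or above 3100. Scores ranked peaks within a list only. The control and options given to the peak caller are not given in the sources used here.

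The peaks of all autosomes and of X and Y were compared with Python 3.11.15 at an overlap of 1 bp, checked against bedtools 2.31.1 and tested on simulated data. Gene bodies and start sites came from RefSeq tables of GRCm38.p6; where no start site was given, either gene end was used. Exons, introns and untranslated regions were not analysed here. A background percentage is the share of all coding genes, or of all peaks or domains, that meets the same rule. Share intervals are exact (Clopper-Pearson) at 95%.

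The members and gene lists were chosen with earlier results of these data known. Named in full are members with a difference of 2 or more list-only peaks, those past the 1.5-fold rule, the 5 with most covered length in either list and those with a start site marked in 1 list. From each list of other pathway genes come the 4 with the largest list-only difference, ties going to the larger covered-length ratio; Fn1 was added after its values were seen. Alternatives varied the score limit, overlap, window, added length, minimum length and fold.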

Additional observations from a re-analysis of the deposited data

How the results depend on the processing

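No paired analysis was possible because there is 1 library of each kind, so none could be left out either. Counting as list-only only those peaks at or above their list's median score left 0.685% of post-caerulein and 0% of untreated peaks list-only, and left 1 gene with more post-caerulein-only and 0 with more untreated-only peaks. With peaks at or above that median only, 8 genes had 1.5-fold more covered length post-caerulein and 0 had more untreated, and the log2 ratio over all windows was 0.14. That median was 681.38 untreated and 526.37 post-caerulein, so the limit was a different score in each list. Assigning each peak to the nearest coding gene gave 13 genes with more post-caerulein-only and 5 with more untreated-only peaks. The count of genes with 1.5-fold more covered length post-caerulein was 2 with equal numbers of the highest-scored peaks, 1 with 5 kb added, 1 at a 2-fold threshold and, in the alternative added after seeing the data, 7 inside gene bodies. The count with more untreated was 1 within 100 kb, 1 with 5 kb added, 1 at a 2-fold threshold and 1 inside gene bodies. The log2 ratio of Bmp8a turned to 0.0125 within 100 kb. Inside gene bodies the shares over all coding genes were 10.4% post-caerulein and 9.30% untreated. At the other settings the gene counts have no share over all coding genes beside them and cannot be set against a background. For all these values the cause was not tested. Requiring 50% of a peak to be covered, allowing a gap of 1 kb, or taking equal numbers of peaks kept the direction of all 9 differences of 2 or more list-only peaks; windows of 10 kb and 100 kb kept 8 and 7. Depth is unknown, so no difference could be set against it.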
